A study of Mus musculus with 2 samples.

Results

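The genes described here encode parts of the major histocompatibility complex (MHC) and of the machinery that loads it with peptide. They were chosen by their reads in these same 2 libraries, as 10 gene symbols: H2-DMb1, H2-DMa, H2-Aa, Cd74, H2-K1, H2-D1, B2m, Tap1, Tap2 and Tapbp. Of these, 9 were among the 17586 gene symbols of the table, and Tap2 had no row in it. Their expression was compared between left–right organizer (LRO) cells and non-LRO cells of mouse embryos of embryonic day 8 with 0 to 4 somites. The embryos were of a C57BL/6 x 129 SvEv background and carried the FOXJ1-EGFP transgene, in which the FOXJ1 promoter drives green fluorescent protein (GFP) in cells of the ciliated organizer. GFP-positive LRO cells gave 1 library and GFP-negative non-LRO cells, from a separate pool of embryos of the same genotype, gave 1 library. The study reports far fewer sorted cells and far less RNA for the LRO library than for the non-LRO library. Input thus differed together with the cell group, and their parts in a difference, or in a gene at 0 reads, cannot be told apart. The LRO is a transient pit at the tip of the early embryo whose cilia drive the fluid flow that sets the left and right sides.

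With 1 library per group there was no replicate check, so every difference below is one between 2 libraries and no p-value was computed. The LRO library rested on 30277870 reads and the non-LRO library on 24407300 reads, and values were scaled to these totals. Each ratio is LRO over non-LRO, and the range after it is the 95% interval of a conditional binomial (exact, Clopper-Pearson). Genes whose interval lay wholly above 2 were called higher and those whose interval lay wholly below 0.5 lower. Intervals cover counting error only, because amplified reads without molecular identifiers are not independent molecules. Over all genes, 699 (3.97%) were higher and 2167 (12.3%) were lower in the LRO library, and the median log2 ratio was -0.31 over the 9894 well-read genes (50 reads or more in each library). The higher genes made up 24.4% of the calls, 45.0% when the libraries were scaled by trimmed mean of M-values (TMM) and 42.3% when they were scaled by the median ratio of the well-read genes. All 6 genes fixed as LRO markers, among them Foxj1 (194 reads in LRO and 4 in non-LRO cells) and Noto (307 reads in LRO and 0 in non-LRO cells), were higher in the LRO library. In bulk RNA, fewer cells of a type and less RNA per cell cannot be told apart.

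MHC class I molecules sit on nearly all nucleated cells of the adult and show peptides cut from the cell's own proteins to cytotoxic T cells. A heavy chain (H2-K or H2-D in the mouse) pairs with the light chain beta-2-microglobulin, and the transporter TAP with its partner tapasin brings peptides to the pair in the endoplasmic reticulum. MHC class II molecules are made mainly by cells of the immune system that present antigen taken up from outside. Their alpha and beta chains travel with the invariant chain CD74 to the endosome, where the chaperone H2-DM exchanges the remnant of that chain for an antigenic peptide.

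Among the 9 listed genes, 2 were higher in the LRO library (H2-DMb1 and B2m), 3 were lower (H2-Aa, Cd74 and H2-D1) and 4 were neither (H2-DMa, H2-K1, Tap1 and Tapbp). The genes were chosen with these reads known, so the counts describe the choice and are not set against the background shares of 3.97% and 12.3%. Their log2 ratios, taken with a pseudocount of 1 read, ran between -4.77 and 5.60 with a median of -0.02, beside a median of -0.42 over all genes. With genes at 0 reads placed at the floor of 3 reads, the members' median was again -0.02 and that of all genes was -0.33. Reads of 1 or 2 were left as they were, so this placement can put a 0 above them. Reads were few. Of the 9 genes, 6 reached 50 reads over both libraries and 5 had reads in both, while 2 were at 0 in the LRO library and another 2 at 0 in the non-LRO library. With TMM factors, 2 were higher and 2 lower, and these counts too describe the choice.

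**Figure D1:**
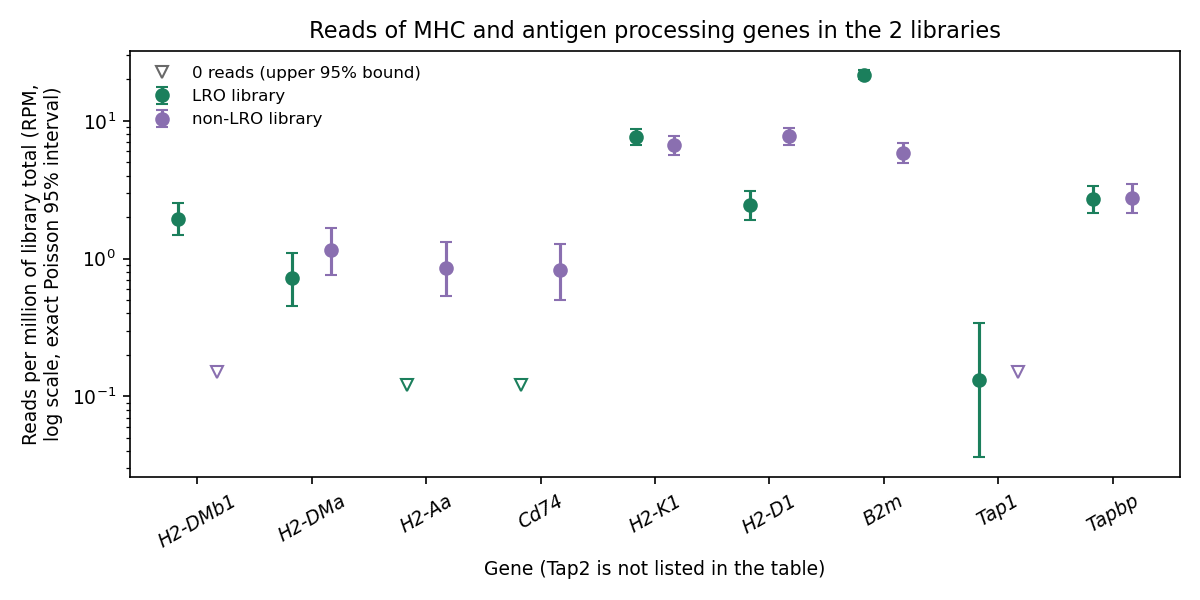
Reads per 1000000 of the library total (RPM) for the 9 listed genes on a log axis, LRO library (green) left of non-LRO library (purple), with exact Poisson 95% intervals; an open triangle marks a gene with 0 reads at its upper bound. B2m stood at 21.6 RPM in LRO cells and 5.82 RPM in non-LRO cells, whereas H2-DMb1, H2-Aa, Cd74 and Tap1 had reads in 1 library only.

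Several of these genes have close copies, and the bases in which the copies differ decide where a read of 50 bases can be placed. H2-DMb1 and its neighbour H2-DMb2 had coding sequences of 786 bases each that were 95.9% identical, with 32 differing bases and a longest identical run of 221 bases. The stretches of 60 coding bases with the most differences (17 of them) are shown to let a reader see what told the copies apart, with differing bases in capitals (coding bases 208 to 267 of the GENCODE M21 transcripts, both on chromosome 17).
H2-DMb1: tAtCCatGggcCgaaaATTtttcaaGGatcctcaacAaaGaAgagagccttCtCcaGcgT
H2-DMb2: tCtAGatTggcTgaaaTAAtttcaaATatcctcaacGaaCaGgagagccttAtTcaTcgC

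H2-K1 and H2-D1, the classical class I heavy chains, were 91.5% identical over 1080 aligned coding bases, with 92 differences and a longest identical run of 91 bases. Their most divergent stretch of 60 bases held 15 differences (capitals; coding bases 492 to 551 of H2-K1 and 501 to 560 of H2-D1, both on chromosome 17).
H2-K1: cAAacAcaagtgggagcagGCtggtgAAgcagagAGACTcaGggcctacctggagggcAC
H2-D1: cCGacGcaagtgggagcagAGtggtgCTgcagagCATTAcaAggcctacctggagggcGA

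Measured over all 50-base windows of each transcript, none of those of B2m, Cd74, H2-Aa or H2-DMa occurred in another gene of the GENCODE M21 annotation. For H2-DMb1, 27.2% of the windows also occurred in H2-DMb2 and in no other gene. For H2-K1 the share was 8.79%, for H2-D1 14.3% and for Tapbp 21.0%. Most of the shared windows of Tapbp occurred in Gm19412 (19.0% of its windows). The reads of these 4 genes may therefore include reads of the genes that share their windows, or have lost some to them. Their values are uncertain to that extent.

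H2-DMb1 encodes the beta chain of the H2-DM peptide exchanger and lay at 17:34290136-34297175 (plus strand) in the coordinates of the table, which are those of a build older than GRCm38. It had 59 reads in LRO cells and 0 in non-LRO cells, or 1.95 RPM (reads per 1000000 of the library total; 95% interval 1.48 to 2.51) in LRO cells and at most 0.151 RPM in non-LRO cells. The LRO library alone carried the gene. The lower bound of the ratio was 12.5, a bound for counting error only between these 2 libraries. Its level in RPKM (reads scaled to transcript length and library total) was 1.52 in LRO cells and 0 in non-LRO cells. H2-DMb2 had no row in the table. The call was lost when reads were divided by 10 to allow for amplification copies, where the lower bound was 0.949.

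By LRO reads, H2-DMb1 ranked 17th of the 799 genes with 0 non-LRO reads. The 5 genes of that set with the nearest LRO read numbers were 1700007K13Rik (60 reads in LRO and 0 in non-LRO cells), Efhb (57 and 0 reads), 1110058D11Rik (55 and 0 reads), Pabpc1l (51 and 0 reads) and Gzmm (70 and 0 reads). The likeness is in read number over 2 libraries and in nothing else.

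H2-DMa encodes the alpha chain that H2-DMb1 pairs with, and lay nearby at 17:34259777-34276047 (plus strand). It had 22 reads in LRO cells and 28 in non-LRO cells, with a ratio of 0.633 (0.345 to 1.15), so the libraries were not distinguishable at this depth. Per length, the beta chain stood at 3.46 times the alpha chain in LRO cells (RPKM) and at 0 in non-LRO cells. The 2 chains of the dimer were therefore read unequally in both libraries. In non-LRO cells the alpha chain was read without the beta chain.

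H2-Aa, the alpha chain of the class II molecule I-A, lay at 17:34419696-34424717 (minus strand). It had 0 reads in LRO cells and 21 in non-LRO cells. The upper bound of the ratio was 0.155, or 6.46-fold lower in the LRO library, a bound for counting error only. Its partner, the beta chain H2-Ab1, had 52 reads in LRO cells and 27 in non-LRO cells, with a ratio of 1.55 (0.957 to 2.57), which met neither bound. Per length, H2-Aa stood at 0 times H2-Ab1 in LRO cells and at 0.868 times in non-LRO cells (RPKM). Non-LRO cells thus carried reads of both I-A chains and LRO cells those of the beta chain alone.

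Cd74 (18:60963503-60972307, plus strand) encodes the invariant chain that escorts new class II dimers. It had 0 reads in LRO cells and 20 in non-LRO cells. The upper bound of the ratio was 0.163, or 6.12-fold lower in the LRO library, a bound for counting error only. Of its 2 transcripts, NM_001042605 held 18.8 of the estimated non-LRO reads and NM_010545 held 1.15. The calls of H2-Aa and Cd74 were both lost when reads were divided by 10, with an upper bound of 4.29 for each.

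The pathway list for class II chains and loading held 12 genes, of which 8 were in the table. H2-DMb1 was higher, H2-Aa and Cd74 were lower and 5 were neither, beside 3.97% of all genes higher and 12.3% lower. The called genes are those chosen by these reads, so the counts are a description. The median log2 ratio was -0.02 beside -0.42 over all genes (with zeros at the floor, -0.01 beside -0.33). H2-Oa, the alpha chain of the H2-O dimer that restrains H2-DM, had 29 reads in LRO cells and 13 in non-LRO cells (1.80, 0.906 to 3.77). H2-Eb1 had 0 reads in LRO and 1 in non-LRO cells, and H2-Eb2 had 1 read in LRO and 0 in non-LRO cells.

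Class II genes are markers of antigen-presenting cells, so the markers of blood cells were counted beside them. Of 21 leukocyte markers, 12 were in the table. None was higher and 1 was lower in the LRO library, beside 3.97% and 12.3% of all genes. The lower one was Coro1a, an actin-binding protein of leukocytes, with 23 reads in LRO cells and 64 in non-LRO cells. That call was lost with TMM factors. Ptprc, which encodes the pan-leukocyte antigen CD45, had 0 reads in LRO cells and 5 in non-LRO cells. Itgax, a marker of dendritic cells, had 0 reads in LRO cells and 5 in non-LRO cells. The myeloid genes Itgam (2 reads in LRO and 0 in non-LRO cells), Lyz2 (2 and 0 reads) and Cx3cr1 (2 and 1 reads) were too few to show a difference. The macrophage genes Csf1r (24 reads in LRO and 22 in non-LRO cells) and Cd68 (33 and 45 reads, ratio 0.591, 0.365 to 0.947) met neither bound. Nor did the lysosomal gene Laptm5 (66 and 24 reads, ratio 2.22, 1.37 to 3.70), which had the most LRO reads of the 12 markers. The 12 markers summed to 5.19 RPM in LRO cells and 7.21 RPM in non-LRO cells, with 4 of them at 0 in LRO and 2 at 0 in non-LRO cells, and their part in the class II values was not tested. The part of other cells was not tested either: erythroid markers summed to 0.198 RPM in LRO cells and 1518 RPM in non-LRO cells, and endothelial markers to 32.0 RPM in LRO cells and 120 RPM in non-LRO cells. Kdr, with 871 reads, made up most of the endothelial sum in LRO cells, and the median log2 ratio of that list was -4.52, with Cdh5 at 5 reads in LRO cells and 478 in non-LRO cells.

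**Figure D2:**
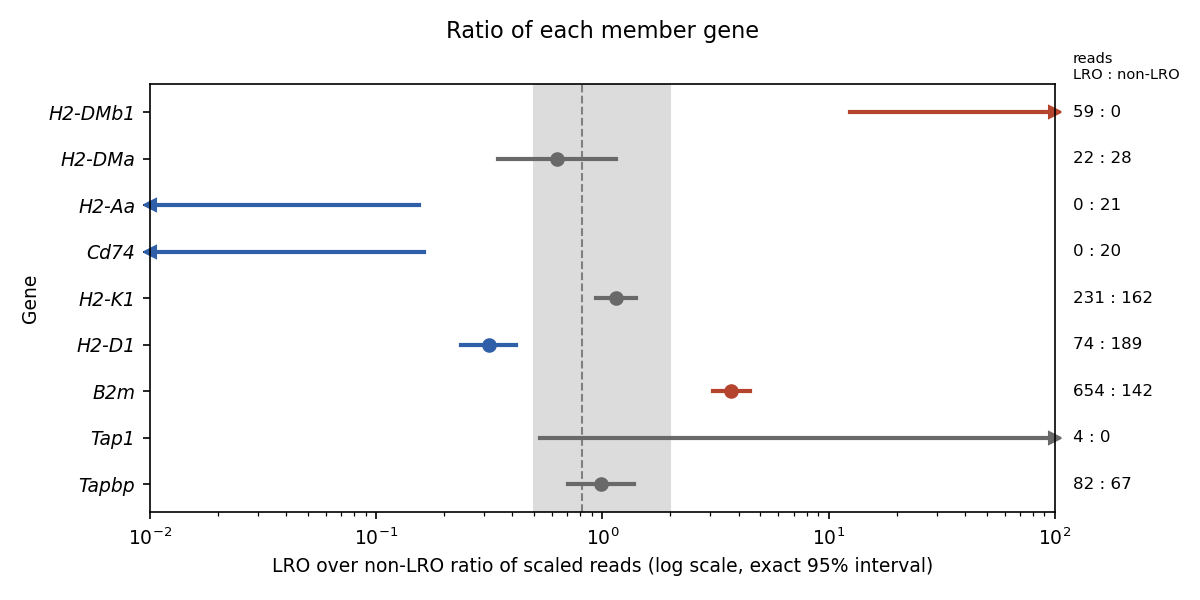
LRO over non-LRO ratio of scaled reads for each listed gene on a log axis, with exact 95% intervals (arrows run past the axis where 1 library was at 0); the grey band spans 0.5 to 2, the dashed line is the median ratio of well-read genes (0.809), red is higher, blue lower, and the read numbers stand at the right. B2m and H2-DMb1 lay wholly above the band, and H2-D1, H2-Aa and Cd74 wholly below it.

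B2m, the class I light chain shared by all class I heavy chains, lay at 2:121973423-121978819 (plus strand). It had 654 reads in LRO cells and 142 in non-LRO cells, with RPKM values of 25.2 in LRO cells and 6.78 in non-LRO cells. The ratio was 3.71 (3.09 to 4.48), and the call was lost under no alternative except a bound of 4. By RPKM the gene stood at percentile 93.9 of all genes in LRO cells and 73.4 in non-LRO cells. Per length it was the highest of the listed genes in both libraries.

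Neither classical heavy chain was called higher, as the light chain was. H2-K1 (17:34132957-34137279, minus strand) had 231 reads in LRO cells and 162 in non-LRO cells, with RPKM values of 4.64 in LRO cells and 4.04 in non-LRO cells. Its ratio of 1.15 (0.936 to 1.41) met neither bound under any alternative. The ratio of H2-K1 was 1.46 (1.19 to 1.80) with TMM factors and 1.42 (1.16 to 1.75) with median-ratio scaling. Both of these intervals lay above 1, with B2m at 4.73 and 4.59 under the same scalings. H2-D1 (17:35400039-35404443, plus strand) had 74 reads in LRO cells and 189 in non-LRO cells, with RPKM values of 1.41 in LRO cells and 4.47 in non-LRO cells. It was 3.17-fold lower in LRO cells (2.41 to 4.20; ratio 0.316). That call was lost with TMM factors (0.402, 0.303 to 0.529), with median-ratio scaling (0.390, 0.294 to 0.513), at a bound of 4, with reads divided by 10 (0.297, 0.106 to 0.738) and when the reads of H2-K1, H2-D1, H2-L and the H2-Q genes were summed (0.633, 0.551 to 0.726).

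Per length, H2-K1 stood at 3.30 times H2-D1 in LRO cells and at 0.903 times in non-LRO cells (RPKM). B2m stood at 4.16 times the sum of both heavy chains in LRO cells and at 0.797 times in non-LRO cells. These ratios are taken within a library and do not depend on how the libraries were scaled. They do depend on how reads were split between the 2 heavy chains and their copies.

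The list of class I chains held 30 genes, of which 26 were in the table. B2m and Mr1 were higher and 6 were lower, beside 3.97% and 12.3% of all genes, and 18 were neither. B2m, H2-K1 and H2-D1 were chosen by these reads, so the counts are a description. The median log2 ratio was -1.55, beside -0.42 over all genes (with zeros at the floor, -0.28 beside -0.33). Mr1, which presents vitamin B metabolites, had 21 reads in LRO cells and 0 in non-LRO cells. Hfe, a class I-like regulator of iron uptake, had 0 reads in LRO cells and 17 in non-LRO cells. The other lower genes besides H2-D1 were H2-Q4 (18 reads in LRO and 64 in non-LRO cells), H2-Q6 (0 and 8 reads), H2-Q9 (1 and 15 reads) and H2-T24 (73 and 164 reads), all members of families of close copies. H2-T23, the mouse Qa-1 chain that shows leader peptides of other class I chains, was the best-read heavy chain, with 951 reads in LRO cells and 682 in non-LRO cells (1.12, 1.02 to 1.24), although 29.8% of its windows occurred in other genes, so these reads are uncertain too. With TMM factors the list had 2 higher and 3 lower genes, beside 6.45% and 7.89% of all genes.

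Tap1 encodes a subunit of the peptide transporter and lay at 17:34324501-34334171 (plus strand). It had 4 reads in LRO cells and 0 in non-LRO cells, and the lower bound of the ratio was 0.532. The second subunit, Tap2, had no row. At this depth no difference in either subunit was detectable.

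Tapbp (17:34056423-34066236, plus strand) encodes tapasin, which holds empty class I molecules at the transporter. It had 82 reads in LRO cells and 67 in non-LRO cells, with RPKM values of 0.990 in LRO cells and 0.991 in non-LRO cells and a ratio of 0.987 (0.706 to 1.38). The gene total met neither bound, and the estimated split between its 2 transcripts differed between the libraries. NM_001025313 held 40.1 of the estimated reads in LRO cells (48.7%) and 50.4 in non-LRO cells (75.7%), with a ratio of 0.641 (0.413 to 0.991). NM_009318 held 42.3 in LRO cells (51.3%) and 16.2 in non-LRO cells (24.3%), with a ratio of 2.11 (1.16 to 4.01). These transcript reads are estimates of a split and not counted reads, so the 2 intervals do not measure its uncertainty. Neither transcript met a bound.

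The 2 transcripts differed in 3 coding bases at the start of exon 7, which began at base 33926627 of chromosome 17 in NM_001025313 and at base 33926630 in NM_009318, with the shared end at 33926706 (GRCm38). The exon join is shown because it is all that separates them, with the extra bases in capitals (coding bases 1280 to 1342 and 1280 to 1339).
Tapbp NM_001025313: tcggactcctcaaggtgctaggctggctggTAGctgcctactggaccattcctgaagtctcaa
Tapbp NM_009318: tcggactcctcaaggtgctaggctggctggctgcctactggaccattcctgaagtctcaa
Reads of 50 bases covered these bases from 52 starting positions of the longer transcript, so the split rests on few reads.

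No gene of the class I peptide supply was called. Of 14 genes on that list, 13 were in the table. All 13 met neither bound, beside 3.97% of all genes higher and 12.3% lower. Tap1 and Tapbp are among the genes chosen by these reads. The median log2 ratio was -0.27. The chaperones that fold class I chains were the best-read genes of the list together with Psme3: Calr (6495 reads in LRO and 3977 in non-LRO cells, ratio 1.32, 1.27 to 1.37), Canx (8344 and 7763 reads, 0.866, 0.840 to 0.894) and Pdia3 (8523 and 8285 reads, 0.829, 0.804 to 0.855). Erap1, which trims peptides to the length class I molecules hold, had 77 reads in LRO cells and 26 in non-LRO cells (2.39, 1.51 to 3.88).

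The immunoproteasome subunits Psmb8, Psmb9 and Psmb10 replace Psmb5, Psmb6 and Psmb7 in cells exposed to interferon-gamma. Psmb8 (4 reads) and Psmb9 (6 reads) were read in non-LRO cells and at 0 in LRO cells, and Psmb10 had 64 reads in LRO cells and 125 in non-LRO cells (0.413, 0.300 to 0.562). The 3 together had 64 reads in LRO cells and 135 in non-LRO cells (0.382, 0.279 to 0.518), which met neither bound. The 3 standard subunits had 7136 reads in LRO cells and 6038 in non-LRO cells (0.953, 0.920 to 0.986). Per length, the immunoproteasome subunits stood at 0.00666 times the standard ones in LRO cells and at 0.0172 times in non-LRO cells (RPKM).

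The class II region of chromosome 17, between H2-K1 and H2-Eb2 (34132957 to 34478356 in the table's build), held 17 genes of the table. H2-DMb1 was higher, H2-Aa was lower and 15 were neither, beside 3.97% of all genes higher and 12.3% lower. Both called genes are among those chosen by these reads. The median log2 ratio was -0.09. The unrelated gene Brd2, which lies just before H2-DMa, had 3895 reads in LRO cells and 3341 in non-LRO cells (0.940, 0.897 to 0.985). Ring1, a Polycomb subunit, had 497 reads in LRO cells and 221 in non-LRO cells (1.81, 1.54 to 2.13). Their neighbours in the table (H2-DMa and Psmb9 beside H2-DMb1, H2-Ab1 and H2-Eb1 beside H2-Aa) met neither bound.

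**Figure D3:**
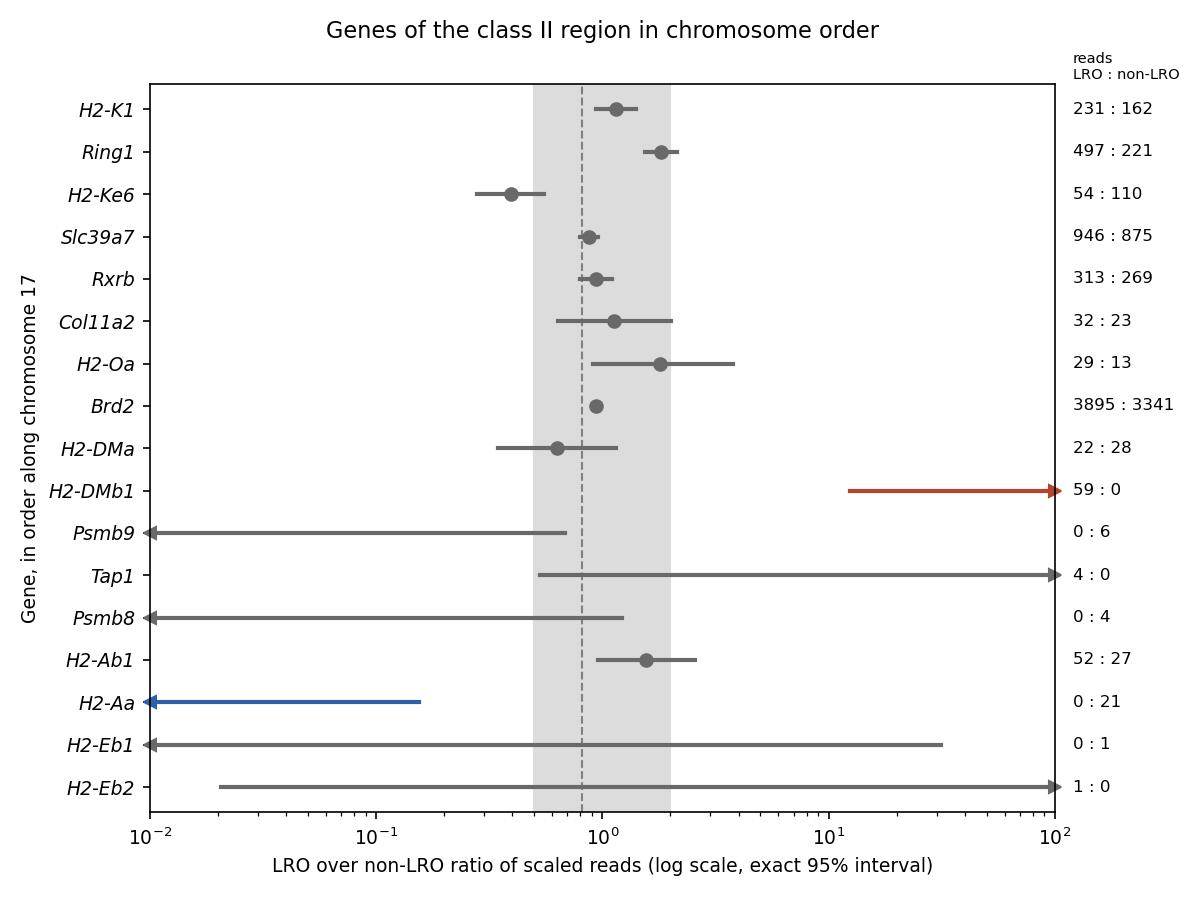
LRO over non-LRO ratio of scaled reads, with exact 95% intervals on a log axis, for the 17 genes between H2-K1 and H2-Eb2 in their order along chromosome 17; arrows, band, line and colours are as for the listed genes. H2-DMb1 (59 reads in LRO and 0 in non-LRO cells) and H2-Aa (0 and 21 reads) lay outside the band, among 15 genes that met neither bound.

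The promoters of class I and class II genes carry short shared elements known from immune cells, among them an X box bound in part by CREB-family factors, a Y box bound by NF-Y and, in class I genes, an NF-kappaB site. Short patterns were searched on both strands of RefSeq promoter windows (GRCm38.p6, 250 bases before to 50 bases after the start): CCAAT (Y box core), TGACG (core of a CREB site) and GGGATTC (part of an NF-kappaB sequence). Of 32851 windows, CCAAT occurred in 37.4%, TGACG in 20.8% and GGGATTC in 3.08%. The 200 bases before the start are shown for the 3 class I genes and the called class II genes on chromosome 17, with matches on either strand in capitals (ATTGG is CCAAT on the opposite strand).
B2m, chr2:122147487-122147686 (plus strand): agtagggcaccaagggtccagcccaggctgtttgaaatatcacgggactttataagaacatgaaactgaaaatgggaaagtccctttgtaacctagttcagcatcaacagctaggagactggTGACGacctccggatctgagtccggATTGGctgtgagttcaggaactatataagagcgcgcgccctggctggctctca
H2-K1, chr17:34000348-34000547 (minus strand): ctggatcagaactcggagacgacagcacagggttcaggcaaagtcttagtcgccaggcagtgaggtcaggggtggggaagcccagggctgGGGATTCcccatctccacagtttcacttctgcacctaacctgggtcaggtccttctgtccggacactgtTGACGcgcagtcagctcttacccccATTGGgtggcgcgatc
H2-D1, chr17:35262894-35263093 (plus strand): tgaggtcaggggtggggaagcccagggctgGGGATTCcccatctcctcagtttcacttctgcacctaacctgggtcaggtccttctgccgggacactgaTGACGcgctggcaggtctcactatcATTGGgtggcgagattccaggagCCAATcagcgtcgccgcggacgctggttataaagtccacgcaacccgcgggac
H2-Aa, chr17:34287824-34288023 (minus strand): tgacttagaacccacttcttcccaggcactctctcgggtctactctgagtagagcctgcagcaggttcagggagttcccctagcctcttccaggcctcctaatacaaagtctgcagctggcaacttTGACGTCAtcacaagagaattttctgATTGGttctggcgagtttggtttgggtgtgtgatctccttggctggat
H2-DMb1, chr17:34152991-34153190 (plus strand): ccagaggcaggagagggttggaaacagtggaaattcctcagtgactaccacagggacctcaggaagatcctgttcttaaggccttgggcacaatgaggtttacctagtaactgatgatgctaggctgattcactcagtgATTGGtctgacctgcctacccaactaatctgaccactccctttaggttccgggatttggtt

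The promoters of H2-K1 and H2-D1 both held GGGATTC, and in both it began 69 bases before TGACG, with CCAAT nearer to the start. H2-K1 held a further CCAAT at 8 bases after the start, past the bases shown. The promoter of B2m held TGACG at 78 bases and CCAAT at 53 bases before the start, and TGACG again at 44 bases after it. That of H2-Aa held TGACG on both strands at 74 and 71 bases and CCAAT at 48 bases. That of H2-DMb1 held CCAAT at 61 bases and no match to the other patterns. H2-K1 and H2-D1 thus shared all 3 patterns. A link between the patterns and the read ratios was not tested. A match is a run of letters, and no binding was measured in these cells.

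The regulators of these promoters were described from a list of 12 genes, of which 11 were in the table. None was higher and 1 was lower, beside 3.97% and 12.3% of all genes. Rfxank, a subunit of the RFX complex that binds the X box, was the only one called and was lower, with 67 reads in LRO cells and 163 in non-LRO cells (0.331, 0.245 to 0.443), a call lost with TMM factors. Ciita, the master activator of class II genes, had 0 reads in LRO cells and 3 in non-LRO cells, and Nlrc5, its class I counterpart, had no row. The RFX subunits Rfx5 (212 reads in LRO and 184 in non-LRO cells) and Rfxap (272 and 143 reads) and the NF-Y subunit Nfya (841 and 1144 reads) met neither bound. The median log2 ratio of the list was -0.45, beside -0.42 over all genes. With zeros at the floor it was -0.31, beside -0.33 over all genes. That -0.31 is the value of Ciita with its LRO reads set to 3.

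Interferons raise class I genes in most cells, and interferon-gamma also raises class II genes, so receptors and response genes were counted. Of 7 receptor and kinase genes, none was higher and 1 was lower, beside 3.97% and 12.3% of all genes, and 6 met neither bound. The lower one was Jak2, a kinase of the interferon-gamma receptor, with 123 reads in LRO cells and 323 in non-LRO cells (0.307, 0.247 to 0.379). Of 19 response genes, 18 were in the table, none was higher and 2 were lower, near the shares over all genes (3.97% higher and 12.3% lower): Irf9 (33 reads in LRO and 82 in non-LRO cells) and Bst2 (0 and 8 reads). Ifitm3 was the best-read of the response genes, with 522 reads in LRO cells and 224 in non-LRO cells (1.88, 1.60 to 2.21), and with TMM factors it and Mx2 were higher and none was lower.

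None of the 6 genes for endosomal proteases and the reductase that prepare class II peptides met a bound, with Ctsl at 2377 reads in LRO cells and 2629 in non-LRO cells and Ctss at 0 and 1 reads. The median log2 ratio of this list was -0.66 (-0.36 with zeros at the floor). Of all genes, 3.97% were higher and 12.3% lower.

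**Figure D4:**
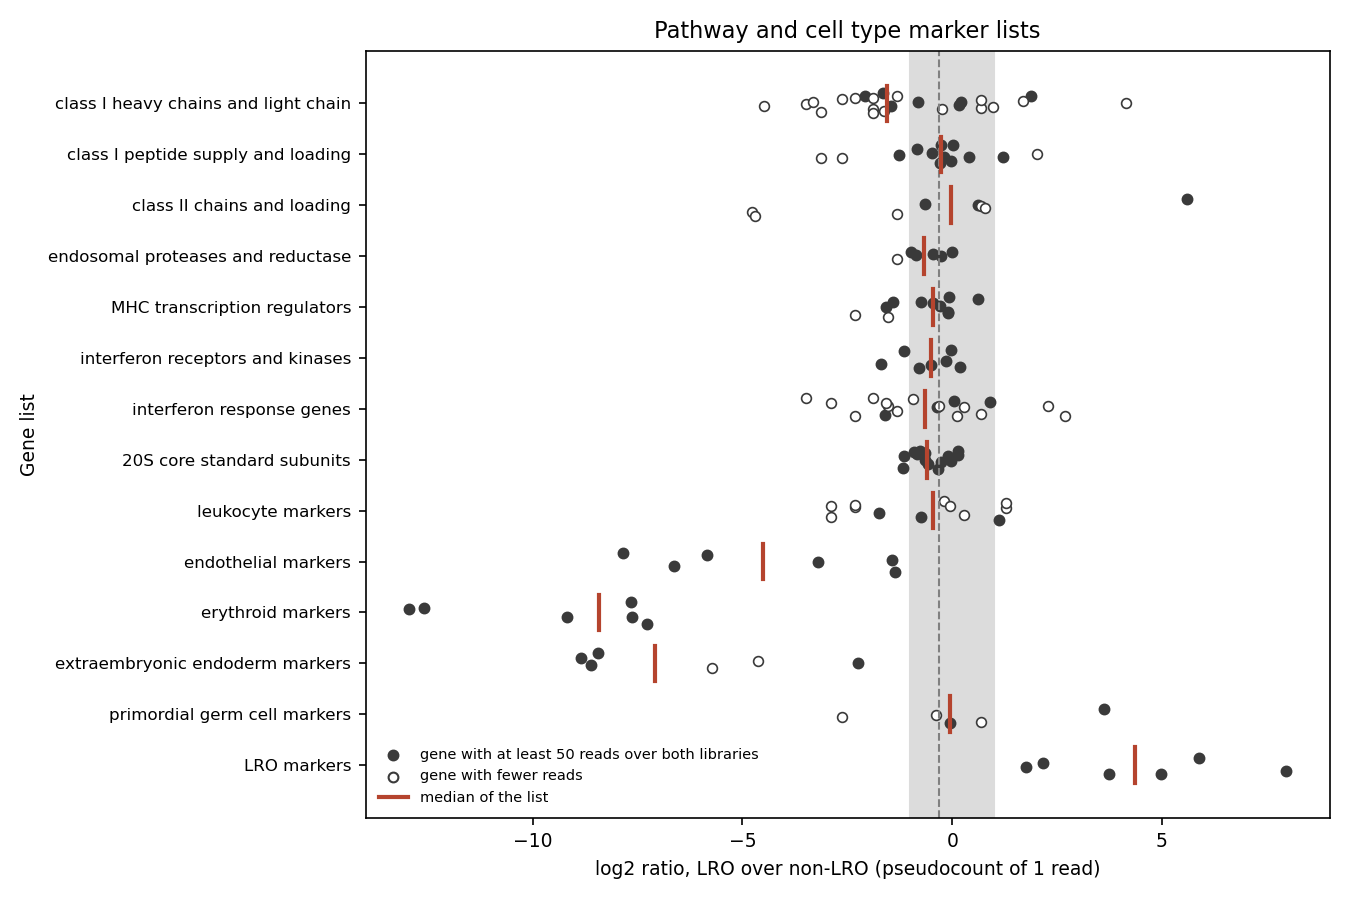
log2 ratio (LRO over non-LRO, pseudocount of 1 read) of every gene with a read in each pathway or marker list; filled points had at least 50 reads over both libraries, open points fewer, red bars are list medians, the grey band spans a log2 ratio of -1 to 1 and the dashed line is the median of well-read genes (-0.31). LRO markers lay to the right (median 4.36) and erythroid markers to the left (median -8.43). The median of the class I chains (-1.55) lay left of the band. With zeros at the floor it was -0.28, beside -0.33 over all genes. The medians of the class II (-0.02), peptide supply (-0.27) and regulator (-0.45) lists lay inside the band.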

How the data were processed

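RNA of sorted LRO and non-LRO cells was measured in 1 library each. Per the labels, cDNA was made with the Ovation RNA-Seq System v2, which amplifies and keeps no strand, and libraries with a Nextera kit. The authors aligned 50-base reads with TopHat and quantified them in Partek Genomics Suite 6.6. The deposited estimated counts are reads per RefSeq transcript, split where transcripts share them, and the deposited RPKM values are these reads scaled by the authors to transcript length and library total. The deposited transcript lengths are in bases. The columns of the authors' own comparison (p-values and fold changes) and 4 columns of junction and incompatible values were not used. The non-LRO column was named as GFP negative. The LRO column named no sample and was assigned as the only other library, under which the study lists its GFP-positive reads. The labels name mm10, yet chromosome 1 positions reach 197002910, beyond GRCm38, so the table's positions belong to an older build.

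Estimated counts were summed per gene and rounded. Library totals were recovered from reads, length and RPKM. Of these totals, 16672852 LRO reads and 13418798 non-LRO reads were assigned to transcripts. The size rule and its intervals are given with the results. The self-test of the rule ran on simulated counts. Alternatives were other library totals, TMM (edgeR 4.0.16, R 4.3.3), median-ratio scaling, bounds of 1.5 and 4, a 99% interval, a minimum of 50 reads, reads divided by 10, the deeper library thinned to the shallower one, single transcripts and summed paralogs, with pseudocounts of 0.5 and 5 reads for the median. Sequences came from GENCODE M21 (GRCm38) and RefSeq promoter windows (GRCm38.p6), where 8 of the 10 genes had a window. Scripts used Python 3.11.15, pandas 2.3.3, scipy 1.17.1 and matplotlib 3.10.9. All 10 genes were named, with every called gene of each pathway list and up to 4 of its best-read others, and a few more were named after their values were seen. Genes and lists were chosen with earlier results of these data known.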

Additional observations from a re-analysis of the deposited data

How the results depend on the processing

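Each library stands alone, so no spread between embryos or sorts could be measured, and reads under 50 over both libraries limit H2-Aa, Cd74 and Tap1. No paired analysis was possible because there was 1 library per group. Of 86 recomputed ratios of the listed genes, 76 kept their side of the bounds, 10 lost a call and none reversed. The tally includes H2-DMa, H2-K1, Tap1 and Tapbp, which had no call to lose. It leaves out H2-Aa and Cd74 at the minimum of 50 reads, which neither gene reached. A bound of 1.5 could not remove a call, and the summed paralogs of H2-DMb1 held that gene alone. The listed genes called higher numbered 2, with 1 at a bound of 4 and 1 with reads divided by 10. Those called lower numbered 3, with 1 at a minimum of 50 reads over both libraries and 0 with reads divided by 10. The lower call of Cd74 was also lost in its transcript NM_010545 alone. Over all genes, the 699 higher calls were 1134 with TMM factors, 1056 with median-ratio scaling, 1242 at a bound of 1.5, 246 at a bound of 4, 155 with reads divided by 10 and 1406 when transcripts were counted one by one. The 2167 lower calls were 1388 with TMM factors, 1443 with median-ratio scaling, 3872 at a bound of 1.5, 680 at a bound of 4, 1343 at a minimum of 50 reads, 293 with reads divided by 10 and 3838 over transcripts. The median log2 ratio over well-read genes was -0.31 as reported and 0.04 with TMM factors, and scaling moved the median of the listed genes between -0.02 as reported and 0.33 with TMM factors, a shift that the scaling itself adds.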

Other observations

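The standard subunits of the 20S proteasome core, which make most peptides for class I molecules, were all in the table. Of 14 subunits, none was higher and 2 were lower in the LRO library: Psma1 (514 reads in LRO and 927 in non-LRO cells, ratio 0.447, 0.401 to 0.498) and Psmb4 (905 and 1646 reads, 0.443, 0.408 to 0.481). These counts stand beside 3.97% of all genes higher and 12.3% lower, and both calls were lost with TMM factors. The median log2 ratio of the 14 was -0.60, beside -0.42 over all genes.

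Of the primordial germ cell markers, 5 of 6 were in the table. Prdm1 was the only one called, beside 3.97% of all genes higher and 12.3% lower. It was higher, with 3134 reads in LRO cells and 204 in non-LRO cells. The others met neither bound: Dnd1 (21 reads in LRO and 22 in non-LRO cells), Tfap2c (29 and 24 reads), Prdm14 (0 and 4 reads) and Nanos3 (1 and 0 reads), with a list median log2 ratio of -0.05. The 6 extraembryonic endoderm markers were all lower, beside 12.3% of all genes. They summed to 5.28 RPM (reads per 1000000 of the library total) in LRO cells and 136 RPM in non-LRO cells.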
